A study of Saccharomyces cerevisiae with 12 samples.

Results

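The state of Saccharomyces cerevisiae after 24 h without oxygen was described from 2 arrays, 1 of cells kept in carbon monoxide (CO) and 1 of cells kept in pure nitrogen (N2). They belong to a series of 12 arrays that covers each gas at 15, 30, 45, 60 and 120 min and at 24 h. The cells were of strain BY4741, a haploid laboratory strain from which HIS3, LEU2, MET17 and URA3 were removed in whole or part. All of them, the air controls included, were grown first on glucose and then held on nylon membranes on solid YP acetate, a carbon source that yeast can use only by respiration. N2 removes oxygen, and CO removes oxygen and also binds reduced heme proteins. On each array, RNA of cells in gas carried Cy5 and was set against Cy3-labelled RNA of cells that had stayed in room air equally long. The labels describe cells in both gases as reversibly arrested in division, which the arrays themselves do not measure. Of the 6150 open reading frames (ORFs) in the table, 5852 had a value on both 24 h arrays and are the ones described, 4997 of them with a gene symbol. A further 201 had a value in N2 alone, 17 in CO alone and 80 in neither.

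Yeast that loses respiration on acetate has no other ready source of ATP, since acetate cannot be fermented. A cell that stops growing typically lowers the transcripts of its ribosome factories, which take up much of the transcription of a dividing cell, and raises those for reserves and for protection. Oxygen is also a substrate for the synthesis of sterols, unsaturated fatty acids and heme, so yeast senses its absence through sterol and heme regulators such as UPC2 and HAP1. The separation of a daughter from its mother is run by a set of wall-degrading enzymes whose genes are switched on in the daughter nucleus, early in G1.

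Values are log2 ratios of gas over air, so that 1 is a 2-fold excess in gas and 0 is no difference. Neither the direction nor the base of the logarithm is stated in the labels. They were taken from the dyes and from the range of the values. With 1 array per gas there is no replicate within a gas, so CO and N2 served as the 2 samples without oxygen. The error of a mean came from their difference, moderated in limma by a spread estimated over all ORFs. This moderated standard error (SE) of a 24 h mean had a median of 0.25 over the ORFs and ran from 0.23 to 1.46. An SE printed here can therefore lie above or below the one that a gene's own 2 values would give. Whether both gases were set against the same air sample is not stated. If they were, an error in that sample would appear as a change shared by both. A ratio also cannot tell a change in the gas from a change in the air cells, which had themselves spent 24 h on acetate, and fewer cells with a transcript cannot be told apart from less of it per cell.

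The 24 h arrays spread more widely than the others in the series, with an SD across ORFs of 1.19 in CO and 1.27 in N2. Their medians were -0.18 in CO and -0.05 in N2, a shift that centring each array would remove. HIS3, LEU2, MET17 and URA3, absent from the strain in whole or part, gave a background of -0.76 to 0.31 in CO and -0.70 to -0.14 in N2, and none of the 4 passed the test against air. On 13 ORFs that the table carried on 2 features, the features differed within an array by a median of 0.57 (0.03 to 1.75 in CO, 0.01 to 1.71 in N2).

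Against air, 882 ORFs rose in the mean of both gases (15.1% of those tested) and 1062 fell (18.1%), at an adjusted p under 0.05 in limma's moderated test with Benjamini-Hochberg adjustment. The smallest mean that passed was 0.90 in size and the smallest adjusted p was 0.0174, which many ORFs shared. Of the ORFs that rose, 714 were at least 2-fold higher in each gas, and 823 of those that fell were at least 2-fold lower in each. By fold alone, 721 ORFs (12.3%) were at least 2-fold higher in both gases and 823 (14.1%) at least 2-fold lower in both. The ORFs far from air in a single gas were fewer and are described further on.

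**Figure D1:**
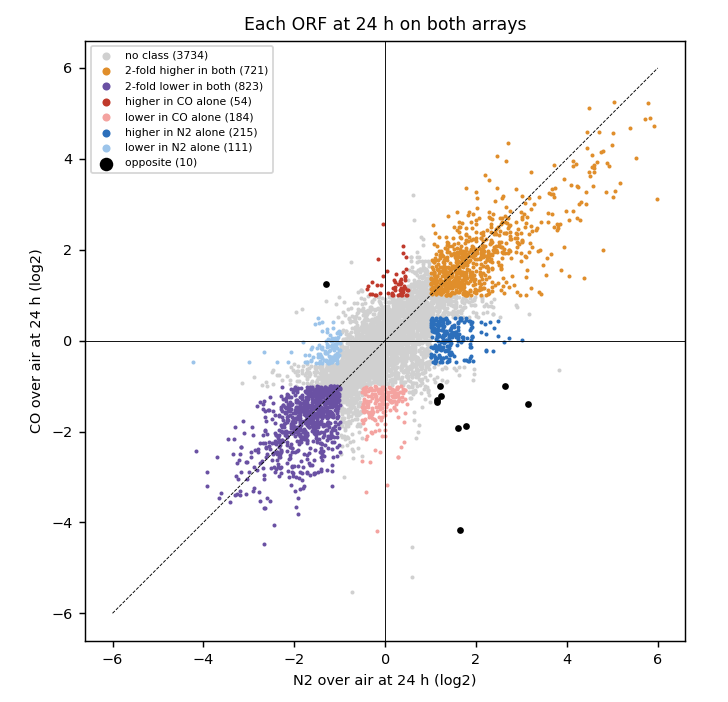
Log2 ratio of gas over air at 24 h, N2 on the x axis and CO on the y axis, with 1 point per ORF (5852 ORFs) and the line of equal values dashed. The 721 ORFs 2-fold higher and the 823 ORFs 2-fold lower in both gases lie along the diagonal, and 10 ORFs lie 2-fold out in opposite directions.

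The 3 highest means of genes with a symbol were those of the wall proteins CWP1 and SCW4 and of CCW22, although the cell wall list as a whole had as many members risen as fallen (8 of 25 each way). CWP1 (YKL096W), a mannoprotein linked to wall glucan, stood at 4.91 in CO and 5.82 in N2. Its mean was 5.36 ± 0.32 (moderated SE, n = 2 arrays). SCW4 (YGR279C), a wall protein related to glucanases, was at 4.72 and 5.92. CCW12 (YLR110C), a small wall mannoprotein, reached 3.27 and 4.85, and CCW22 (YDR134C), annotated as a pseudogene and closely related to it, 4.88 and 5.72, so that either may carry signal of the other. SPI1 (YER150W), a wall protein of stationary phase, had values of 3.63 and 4.50. All 5 were lower in CO than in N2. For CCW12 alone among them the difference between the gases passed its own test (-1.58, adjusted p = 0.0311, limma).

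PCK1 (YKR097W), the phosphoenolpyruvate carboxykinase that commits carbon to gluconeogenesis, was at 4.60 in CO and 4.71 in N2, nearly the same value in both (mean 4.66 ± 0.23). The high-affinity glucose transporter genes HXT6 (YDR343C) at 4.31 and 4.99 and HXT7 (YDR342C) at 3.85 and 4.92 are near-identical and cannot be told apart with certainty. CHA1 (YCL064C), the catabolic serine and threonine deaminase, was at 4.16 and 4.75. FIT3 (YOR383C), a wall protein that retains iron siderophores, was at 3.80 and 4.60, and MEP3 (YPR138C), an ammonium permease, at 3.95 and 4.13. RBH2 (YJR030C) was at 3.88 and 4.20. Each of these genes rose in the mean of both gases (adjusted p = 0.0174). Of the 20 ORFs with the highest mean, 12 had no gene symbol and are counted here without being named; their means ran from 4.32 to 5.51.

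Among the lowest values, genes for making ribosomes stood beside genes of starvation and of the wall. SNO1 (YMR095C), a partner of the vitamin B6 synthesis enzyme SNZ1 and known from stationary phase, was at -3.21 in CO and -3.93 in N2 (mean -3.57 ± 0.29). Its neighbour on chromosome XIII, CTF13 (YMR094W), a kinetochore protein, had -3.39 and -3.19, while SNZ1 itself, chosen after its values were seen, had -0.76 and -0.91 and did not pass (adjusted p = 0.0593). ATG1 (YGL180W), the kinase that starts autophagy, stood at -3.35 and -3.61. GPP1 (YIL053W), a phosphatase that releases glycerol, had -2.89 and -3.91, and HSP150 (YJL159W), a heat-induced wall protein, -3.37 and -3.27. PHO92 (YDR374C), which binds methylated RNA, was at -2.42 and -4.17. SRT1 (YMR101C), a cis-prenyltransferase of dolichol synthesis, was at -3.32 and -3.20. YRO2 (YBR054W), a membrane protein related to HSP30, was at -4.47 in CO and -2.66 in N2. Among these, YRO2 (-1.81, adjusted p = 0.0334) and PHO92 (1.75, adjusted p = 0.0320) differed between the gases in the opposite sense. The thiamine genes THI4, THI5, THI11, THI12 and THI13, also chosen after their values were seen, fell together, with values from -3.69 to -3.46 in CO and from -2.76 to -2.53 in N2. THI5, THI11, THI12 and THI13 are near-identical copies and count as 1 signal.

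Lists of genes with a common role were set beside the counts over all ORFs. The daughter separation list had the highest median of the 48 lists in either gas. Glycolysis had the lowest in the mean of the gases (-1.55), ribosome biogenesis in CO (-1.52) and tRNA synthetases in N2 (-1.46). The counts below are of genes that passed the test against air, to be read against 15.1% higher and 18.1% lower over all ORFs, whose median 24 h mean was -0.11. Where a count is given as 0 by limma's adjusted p, it was also 0 at an unadjusted p under 0.05 for polymerase subunits, tRNA synthetases, complexes III and IV, seripauperins and oxidative defence. It was 2 for translation factors that rose, 5 for vacuolar hydrolases that rose, 5 for mitochondrial ribosomal proteins that fell and 1 for ATP synthase genes that fell.

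**Figure D2:**
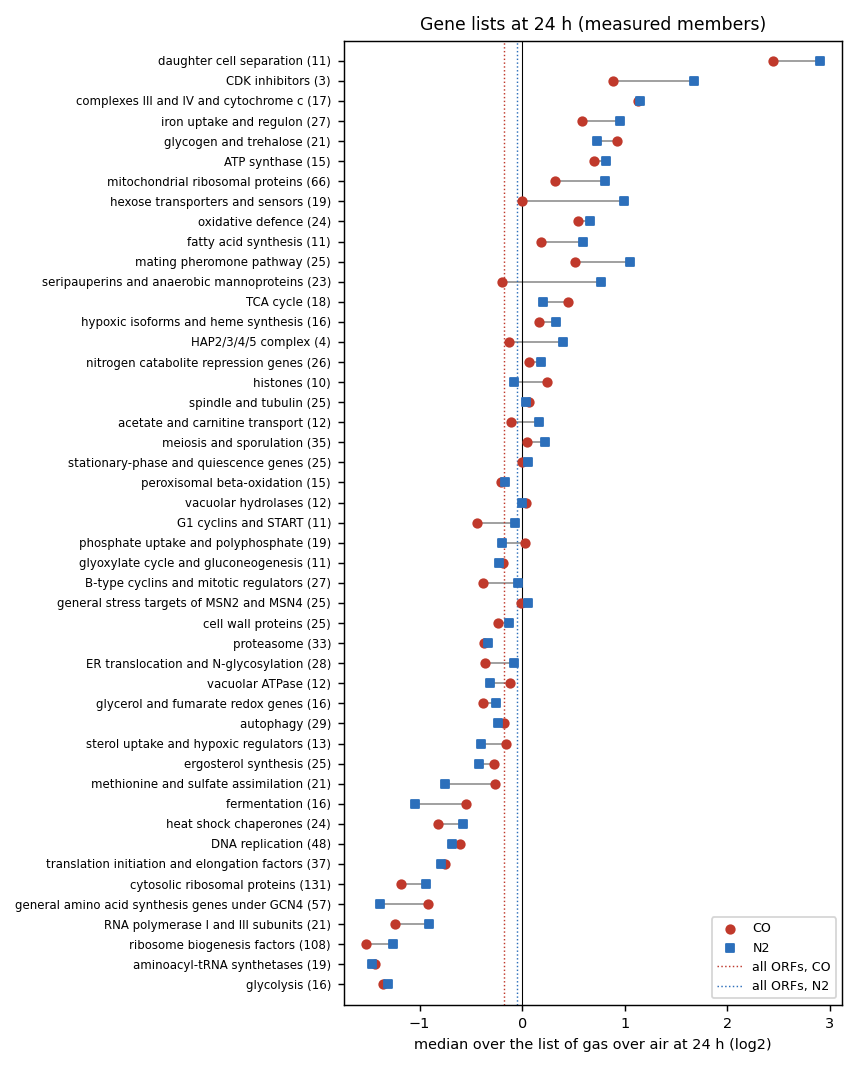
Median log2 ratio of gas over air at 24 h over each gene list, CO as red circles and N2 as blue squares, with the number of measured members in brackets and dotted lines at the medians of all ORFs. Daughter separation stands at 2.44 in CO and 2.90 in N2, while glycolysis, aminoacyl-tRNA synthetases and ribosome biogenesis lie below -1 in both.

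The machinery for making ribosomes and proteins was lower in both gases. Of 108 ribosome biogenesis factors, 67 fell and 2 rose, with a median mean of -1.38. UTP6 (YDR449C), UTP13 (YLR222C) and DIP2 (YLR129W), parts of the processome that matures the small-subunit rRNA, had means of -3.48, -3.22 and -2.92. ROK1 (YGL171W), an RNA helicase of the same step, was at -4.05 in CO and -2.45 in N2. The 2 that rose, named after their values were seen, were ESF1 (mean 1.16) and NOP53 (mean 0.96). NOP53 lost its call when either 24 h array was left out of a fit over all 12 arrays (adjusted p = 0.0555 and 0.0991). Of 21 subunits and factors of RNA polymerases I and III, 10 fell and 0 rose. RRN3 (YKL125W), which brings polymerase I to the ribosomal DNA, stood at -1.67 and -2.64, RET1 (YOR207C), a large polymerase III subunit, at -2.01 and -2.24, and RPA135 (YPR010C) at -1.98 and -2.01. RPA49 (YNL248C) was at -2.50 and -1.78, and its call was lost once the 15 min ratio was subtracted (-1.17, adjusted p = 0.0572).

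Cytosolic ribosomal protein genes, many of them near-identical pairs, included 66 that fell and 2 that rose among 131 measured. RPL38 (YLR325C), RPL17A (YKL180W), RPS0B (YLR048W) and RPL17B (YJL177W) had the means farthest from 0, at -3.13, -2.66, -2.66 and -2.60. RPL15A (mean 1.42) and RPL30 (mean 0.96), named after their values were seen, rose; RPL30 had a ratio above 0 from the start and stood at 0.28 with the 15 min ratio subtracted (adjusted p = 0.485). The list median was 0.24 in CO and 0.12 in N2 at 15 min, went down to -2.04 and -1.79 at 120 min and stood at -1.18 and -0.94 at 24 h. Ribosome biogenesis factors took the other course, from -0.90 and -0.85 at 120 min to -1.52 and -1.26.

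Of 37 translation factors 14 fell and 0 rose. NIP1 (YMR309C) and RPG1 (YBR079C), subunits of initiation factor eIF3, had means of -2.68 and -2.34, YEF3 (YLR249W), the fungal elongation factor 3, -2.34, and TIF3 (YPR163C), the eIF4B of yeast, -1.90. Among 19 aminoacyl-tRNA synthetases 13 fell and 0 rose, and every one of the 19 had a 24 h mean below 0. Those farthest from 0 were YDR341C (mean -2.55), which has no other symbol, ILS1 (YBL076C, -2.44) for isoleucine, CDC60 (YPL160W, -2.38) for leucine and GRS1 (YBR121C, -2.21) for glycine.

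Amino acid synthesis followed the same direction. Of 57 genes of the general amino acid control, 28 fell and 1 rose, with a median of -0.92 in CO and -1.39 in N2. LEU1 (YGL009C), of leucine synthesis, stood at -2.57 in CO and -3.71 in N2, ARO4 (YBR249C), the entry to aromatic amino acids, at -2.88 and -3.18, and HOM3 (YER052C), aspartate kinase, at -2.66 and -3.05. BAT2 (YJR148W), the cytosolic branched-chain aminotransferase of non-growing cells, was the member that rose, at 2.78 and 3.67. GCN4 (YEL009C), the regulator of this list, is controlled mainly in translation, and its transcript was at 0.23 and -0.12 (adjusted p = 0.876). Of 21 genes of methionine and sulfate assimilation 7 fell, or 3 with the 15 min ratio subtracted, and 2 rose. MET5 (YJR137C), a sulfite reductase subunit, had a mean of -1.96 and MET6 (YER091C), methionine synthase, -1.62. MET22 (YOL064C), a phosphatase of sulfate assimilation, was at -1.54, a call lost with the 15 min ratio subtracted (-0.90, adjusted p = 0.0764). SUL2 (YLR092W), a sulfate permease, was at 2.22. In the nitrogen list 4 of 26 rose and 5 fell, or 2 with that subtraction and 3 with centring, with MEP3 at the top and GLN1 (YPR035W), glutamine synthetase, at -1.76 and -2.62 at the bottom. ASP3-1 (YLR155C), an asparaginase present in several copies, had a mean of 2.24, and PUT1 (YLR142W), proline oxidase, 1.84.

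Genes of daughter separation stood apart from the other cell cycle lists, and 8 of 11 rose. DSE2 (YHR143W), a daughter-specific wall protein, was at 3.47 in CO and 5.16 in N2. DSE1 (YER124C) stood at 2.85 and 4.13, DSE4 (YNR067C), an endoglucanase, at 2.56 and 3.79, and DSE3 (YOR264W) at 2.44 and 3.79. The next genes were named after their values were seen. EGT2 had a mean of 2.85, the chitinase CTS1 2.64, AMN1, which turns off mitotic exit in the daughter, 2.58, and the glucanase SCW11 1.85. PRY3 was at 1.07 and 2.90 and narrowly missed the threshold (adjusted p = 0.0508). PST1 (mean -2.64), a wall protein, and ASH1 (mean -2.24), the daughter repressor of HO, fell. DSE2, DSE3 and PRY3 were lower in CO than in N2 in the test of the difference (-1.69, -1.35 and -1.83, adjusted p = 0.0207, 0.0331 and 0.0158).

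The cyclins did not move as a group, and their list medians were near 0 and changed sign between alternatives. CLN2 (YPL256C), a G1 cyclin, rose at 1.94 in CO and 1.93 in N2. Its partner CLN1 (YMR199W) was at 0.46 and 1.09 (adjusted p = 0.0996), and CLN3 (YAL040C), the upstream G1 cyclin, at -0.67 and 0.69, with a gas difference of -1.36 (adjusted p = 0.0278). PCL9 (YDL179W), a cyclin of the PHO85 kinase expressed in early G1, was at 1.05 and 2.61. SWI6 (YLR182W), a subunit of the G1 transcription factors, had a mean of -1.23. BCK2 (YER167W), which promotes START, was at -1.22, and its call was lost with the 15 min ratio subtracted (-0.87, adjusted p = 0.0862). In the list of B-type cyclins and mitotic regulators, 5 of 27 rose and 1 fell. HST3 (YOR025W), a histone deacetylase, had a mean of 1.98, the mitotic cyclin CLB1 (YGR108W) 1.94, and SWE1 (YJL187C), the kinase that delays mitosis, 1.76. CDC28, the kinase that the CLN and CLB cyclins bind, was named after its values were seen and had a mean of 1.56. BUB1 (YGR188C), a spindle checkpoint kinase, was at -2.47 and -1.68, or -1.24 in the mean with the 15 min ratio subtracted. Of the 3 genes listed as CDK inhibitors, the kinase subunit CKS1 (YBR135W) rose (mean 1.80), FAR1 (YJL157C), which holds cells in G1 under pheromone, was at 0.88 and 2.14 (adjusted p = 0.0509), and SIC1 (YLR079W), the G1 inhibitor, at 0.39 and 1.19 (adjusted p = 0.115).

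**Figure D3:**
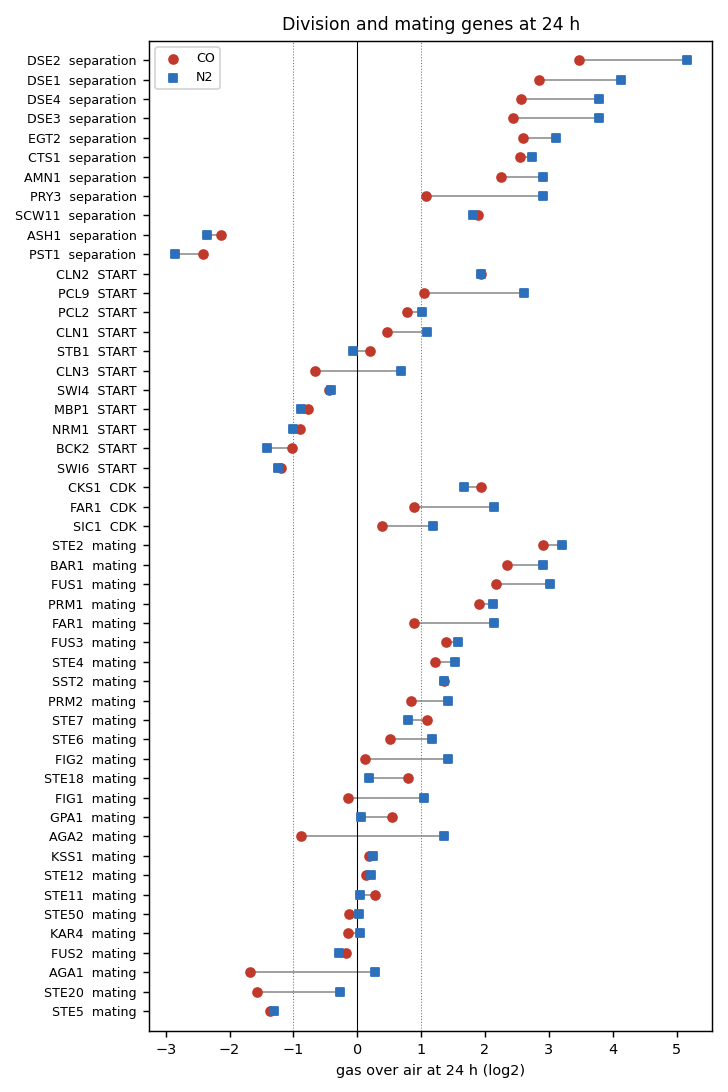
Log2 ratio of gas over air at 24 h for each measured gene of daughter separation, START, the CDK inhibitor list and the mating pathway, CO as red circles and N2 as blue squares, with dotted lines at 2-fold. DSE2 reaches 3.47 in CO and 5.16 in N2, PST1 and ASH1 lie below -2 in both, and SWI6 stands at -1.20 and -1.25.

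DNA replication genes had 12 of 48 fallen and 2 risen, with a median of -0.61 in CO and -0.68 in N2. RNR4 (YGR180C), a ribonucleotide reductase subunit, was at -2.56 and -2.96, RFC4 (YOL094C), a clamp loader subunit, at -2.92 and -1.55, CDC21 (YOR074C), thymidylate synthase, at -1.60 and -2.03, and POL3 (YDL102W), the catalytic subunit of polymerase delta, at -1.48 and -1.96. Of 10 histone genes 2 rose, the H4 genes HHF1 (YBR009C, mean 1.08) and HHF2 (YNL030W, mean 1.47), which encode the same protein. Both lost their call with the 15 min ratio subtracted (adjusted p = 0.0686 and 0.122). HTZ1 (YOL012C), the H2A variant, was at 0.44 and 1.85, and HTB2 (YBL002W) at 1.17 and 0.72, and neither passed. In the spindle list 4 of 25 rose and 4 fell. TUB1 (YML085C), alpha-tubulin, had a mean of 2.82 and NUF2 (YOL069W), a kinetochore protein, 2.48, against -2.0 for SLK19 (YOR195W) and -1.53 for ASE1 (YOR058C), which act at the anaphase spindle. ASE1 rested more on CO, at -2.08 against -0.98 in N2. In the mating pathway, which a haploid uses in G1, 8 of 25 rose and 1 fell. STE2 (YFL026W), the alpha-factor receptor, stood at 2.90 and 3.20, BAR1 (YIL015W), the protease that degrades the pheromone, at 2.34 and 2.90, FUS1 (YCL027W), a cell fusion protein, at 2.17 and 3.01, and PRM1 (YNL279W), of membrane fusion, at 1.90 and 2.12. The scaffold STE5, named after its values were seen, fell with a mean of -1.34.

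The lists of carbon metabolism each held genes that rose and genes that fell. Among 19 hexose transporters and sensors 6 rose and 2 fell. Beside HXT6 and HXT7, HXT4 (YHR092C) was at 3.01 in CO and 4.27 in N2, HXT3 (YDR345C) at 2.62 and 3.59, and MTH1, a repressor of HXT genes named after its values were seen, at 2.37 and 2.66. HXT2 and HXT5, likewise named afterwards, were at -2.46 and -2.01 in the mean. The list median was 0.00 in CO and 0.99 in N2, and HXT4 was lower in CO by 1.26 (-1.26, adjusted p = 0.0341). Glycolysis had 9 of 16 genes fallen and 2 risen. ENO1 (YGR254W) and ENO2 (YHR174W), the enolases, had means of -2.80 and -2.09, and FBA1 (YKL060C), aldolase, -1.97. FBA1 lost its call in the 12-array fit without either 24 h array (adjusted p = 0.1 and 0.172). The members that rose were the sugar kinases GLK1 (YCL040W, mean 2.61) and, named afterwards, HXK1 (mean 1.54). In the fermentation list 5 of 16 fell and 2 rose. The pyruvate decarboxylase genes PDC6 (YGR087C), PDC1 (YLR044C) and, named afterwards, PDC5 had means of -3.06, -2.74 and -2.36, and ALD5 (YER073W), an aldehyde dehydrogenase, -2.84. PDC5 lost its call in the 12-array fit without the CO array of 24 h (adjusted p = 0.0558). ADH6 (YMR318C), an NADPH-dependent alcohol dehydrogenase, was at 2.56 and 3.84. ADH2, which oxidises ethanol, had a mean of -1.33, and ADH1, the main fermentative enzyme, was at -0.47 and -1.73 (adjusted p = 0.0971); both were named afterwards. The call of ADH2 was lost in the 12-array fit without the CO array (adjusted p = 0.0549).

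Gluconeogenesis and the glyoxylate cycle, which respiring cells need to grow on acetate, split. FBP1 (YLR377C), fructose bisphosphatase, at 2.26 in CO and 2.86 in N2, and SFC1 (YJR095W), the succinate-fumarate carrier, at 1.10 and 1.86, rose along with PCK1, while ACS1 (YAL054C), acetyl-CoA synthetase, at -1.32 and -2.19, fell, as did CIT2, at -1.59 and -1.05. CIT2, a citrate synthase of peroxisomes, and ICL1, isocitrate lyase, were named after their values were seen. CIT2 lost its call without the CO array in the 12-array fit (-0.88, adjusted p = 0.176), and ICL1 was at -0.29 and -0.91 (adjusted p = 0.162). Of 12 genes of acetate and carnitine transport 3 rose and 1 fell. ATO2 (YNR002C), of an acetate and ammonia transporter family, had a mean of 2.38, or 1.32 with the 15 min ratio subtracted. RDS2 (YPL133C), a regulator of gluconeogenesis, was at 1.42. ATO3 (YDR384C) was at -1.43, a call lost with the 15 min ratio subtracted (adjusted p = 0.0508) and without the N2 array (adjusted p = 0.11). CRC1 (YOR100C), the mitochondrial carnitine carrier, was at 0.51 and 1.71 (adjusted p = 0.0899). Of 15 beta-oxidation genes 2 rose and 4 fell. PXA1 (YPL147W), a peroxisomal fatty acid importer, had a mean of -2.38 and OAF1 (YAL051W), the oleate activator, -1.72, against 1.84 for FAA1 (YOR317W), an acyl-CoA synthetase, and 1.62 for SPS19 (YNL202W). OAF1 and SPS19 lost their calls with the 15 min ratio subtracted (adjusted p = 0.0530 and 0.0710).

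Storage carbohydrate genes were higher, with 9 of 21 risen and 2 fallen, and their median of 0.92 in CO and 0.73 in N2 was close to the 0.95 and 0.81 of 120 min. GSY2 (YLR258W) and GSY1 (YFR015C), the glycogen synthases, had means of 2.89 and 2.21, UGP1 (YKL035W), which makes UDP-glucose, 2.56, and SGA1 (YIL099W), a sporulation glucoamylase that breaks glycogen down, 2.54. PIG1 (mean -1.48) and TPS3 (mean -1.22), regulatory subunits named after their values were seen, fell. TPS3 lost its call with the 15 min ratio subtracted (adjusted p = 0.0631). The mitochondrial pyruvate carrier, also looked up afterwards, divided by subunit. MPC3 (YGR243W), the subunit of respiring cells, was at 3.23 and 3.69 and MPC2 (YHR162W), its fermentative counterpart, at 3.86 and 3.71, whereas MPC1 (YGL080W), the partner of both, was at -0.44 and 0.16 (adjusted p = 0.711). The glycerol list had 2 of 16 risen and 4 fallen. STL1 (YDR536W), which imports glycerol, and GUT1 (YHL032C), which phosphorylates it, had means of 3.44 and 3.32. The phosphatases GPP1 and GPP2 (YER062C), which release glycerol, were at -3.40 and -1.63. GUT1 was higher in CO than in N2 (3.96 against 2.67, adjusted p = 0.0431).

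Some respiratory transcripts rose in gases that do not allow respiration. Of 17 measured genes of complexes III and IV and cytochrome c, 9 rose and 0 fell. COX13 (YGL191W), a subunit of cytochrome oxidase, was at 2.79 in CO and 2.38 in N2. COX5B (YIL111W), the hypoxic isoform of oxidase subunit V, stood at 2.38 and 2.33, and CYC7 (YEL039C), the hypoxic cytochrome c, at 2.60 and 1.89. COX5A, the aerobic isoform, named afterwards, was at 0.67 and -0.04 (adjusted p = 0.431). QCR8 (YJL166W), of complex III, was at 2.62 and 1.62, and its call was lost with the 15 min ratio subtracted (1.40, adjusted p = 0.0536). The list median was 1.13 and 1.15 at 24 h, after -0.30 and 0.17 at 120 min. With the 15 min ratio subtracted, 5 genes were called higher in place of 9 and the median of the mean went from 1.02 to 0.12. Of 15 ATP synthase genes 5 rose and 0 fell, or 3 and 1 with that subtraction, which took the median from 0.69 to 0.28. INH1 (YDL181W), the inhibitor that stops the enzyme from running backward, had a mean of 2.63, ATP1 (YBL099W), the alpha subunit, 2.56, TIM11 (YDR322C-A) 1.40 and ATP4 (YPL078C) 1.30. ATP1 was higher in CO, at 3.36 against 1.77 (adjusted p = 0.0337). TIM11 lost its call with the 15 min ratio subtracted (adjusted p = 0.215) and without the N2 array (adjusted p = 0.0876), and ATP4 without the CO array (adjusted p = 0.0716).

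In the TCA cycle 4 of 18 rose and 1 fell. SDH4 (YDR178W), of succinate dehydrogenase, had a mean of 1.76, FUM1 (YPL262W), fumarase, 1.58, and IDH1 (YNL037C), isocitrate dehydrogenase, 1.20, a call lost without the CO array in the 12-array fit (adjusted p = 0.0559). Of 66 mitochondrial ribosomal protein genes 18 rose and 0 fell, and 52 of the 66 had a mean above 0. In the 12-array fit the list median was 0.83 without the CO array of 24 h and 0.35 without the N2 array. Over all ORFs the medians of these fits were -0.04 and -0.15. MRPL8 (YJL063C) was at 3.03 and 3.07, MRPS12 (YNR036C) at 3.37 and 2.47, MRP1 (YDR347W) at 2.33 and 2.50 and MRPS5 (YBR251W) at 1.53 and 2.26. Their median moved from -0.42 in CO and -0.18 in N2 at 120 min to 0.32 and 0.81 at 24 h. HAP4 (YKL109W), the limiting subunit of the HAP2/3/4/5 activator of respiratory genes, rose, at 1.79 and 2.03. HAP2 (YGL237C), a DNA-binding subunit of the same complex, fell, at -1.58 and -0.82. HAP3 (YBL021C) was at 0.38 and 1.02 and HAP5 (YOR358W) at -0.64 and -0.21, and neither passed (adjusted p = 0.123 and 0.249).

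Oxygen-regulated genes moved in part. Of 25 ergosterol genes 6 fell and 3 rose. The enzymes ERG25 (YGR060W, mean -3.35) and ERG1 (YGR175C, mean -3.10) use oxygen, and ERG2 (YMR202W) is the sterol isomerase (mean -2.46). The heme enzyme ERG11, named afterwards, was at -2.24, or -1.46 with the 15 min ratio subtracted. ERG4 (YGL012W), the last enzyme of the pathway, was at 1.81 in CO and 2.76 in N2. The sterol regulator UPC2 (YDR213W) was at -0.16 and -1.42 (adjusted p = 0.183), with a gas difference of 1.26 (adjusted p = 0.0345), and its relative ECM22 (YLR228C) at 1.26 and 0.75 (adjusted p = 0.0521). SUT1 (YGL162W), an activator of sterol uptake, stood at 1.61 and 1.47. Almost all of that was present at 15 min, since with the 15 min ratio subtracted it was at 0.20 (adjusted p = 0.632). ARE2 (YNR019W), which esterifies sterols, was at 1.12 and 2.07, and lost its call without the N2 array (adjusted p = 0.0834). The repressors ROX1 (YPR065W, mean -0.53, adjusted p = 0.145) and MOT3 (YMR070W, mean -0.34, adjusted p = 0.499) and the heme activator HAP1 (YLR256W, mean -0.60, adjusted p = 0.127) did not pass.

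OLE1 (YGL055W), which desaturates fatty acids with oxygen, rose, at 1.17 and 1.38, and lost its call without the CO array in the 12-array fit (adjusted p = 0.0559). Of its activators, MGA2 (YIR033W) rose (mean 1.12) and SPT23 (YKL020C) fell (mean -1.20). In fatty acid synthesis 2 of 11 rose (18.2%, near the 15.1% over all ORFs). ELO3 (YLR372W), an elongase, was at 1.11 in CO and 2.54 in N2, while FAS1 (YKL182W, adjusted p = 0.0949) and ACC1 (YNR016C, adjusted p = 0.0844) did not pass. HEM13 (YDR044W), an oxygen-requiring enzyme of heme synthesis that is a common hypoxic marker, was at -0.08 and 0.20 (adjusted p = 0.860), and the anaerobic wall gene DAN1 (YJR150C) at -0.20 and -0.05 (adjusted p = 0.695). FET4 (YMR319C), low-affinity iron transporter, was at 1.22 and 2.41, and its call was lost with the 15 min ratio subtracted (0.93, adjusted p = 0.119). Of 23 seripauperins and anaerobic mannoproteins, a family of close relatives, 4 rose (17.4%, near the 15.1% over all ORFs) and 0 fell. Their list medians were -0.20 in CO and 0.77 in N2. TIR2 (YOR010C) was at 1.58 and 2.36, TIR1 (YER011W) at 1.56 and 1.29, PAU11 (YGL261C) at 1.20 and 1.18 and PAU5 (YFL020C) at 0.58 and 1.52 (adjusted p = 0.0757). TIR1 and PAU11 lost their calls with the 15 min ratio subtracted (adjusted p = 0.0541 and 0.0516).

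Iron genes had 11 of 27 risen and 1 fallen. Beside FIT3, FET3 (YMR058W), the copper oxidase of high-affinity iron uptake, was at 2.48 in CO and 3.81 in N2, SIT1 (YEL065W), a siderophore transporter, at 1.91 and 3.66, and ARN1 (YHL040C), another, at 2.08 and 1.92. FET3 was lower in CO (-1.33, adjusted p = 0.0401). Of 24 genes of oxidative defence 6 rose and 0 fell. SOD1 (YJR104C), the copper-zinc superoxide dismutase, was at 2.04 and 2.16, OYE3 (YPL171C), an old yellow enzyme, at 1.67 and 1.77, and GLR1 (YPL091W), glutathione reductase, at 1.89 and 1.20, a call lost without the CO array (adjusted p = 0.0830). YHB1 (YGR234W), the flavohemoglobin, was at 1.42 and 1.76. In the 12-array fit it was 2.63 without the CO array and 0.55 without the N2 array. That fit carries the gas difference of the earlier times over to 24 h, so these are not the values of the array left. The call of YHB1 was lost with the 15 min ratio subtracted (0.96, adjusted p = 0.0668).

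Targets of the stress regulators MSN2 and MSN4 had no common direction. Of the 25 measured, 6 rose (24.0%) and 4 fell (16.0%), against 15.1% and 18.1% over all ORFs. Their median 24 h mean was -0.06, near the -0.11 over all ORFs. YGP1 (YNL160W), a wall glycoprotein of starved cells, was at 1.44 in CO and 3.55 in N2, a difference of -2.11 (adjusted p = 0.0144). HSP42 and HSP12, small heat shock proteins, and GAD1, glutamate decarboxylase, were named after their values were seen and had means of 1.74, 1.64 and 1.73. GAD1 lost its call without the CO array (0.90, adjusted p = 0.0617). HSP26 (YBR072W), a small heat shock protein, was at -1.52 and -2.57, SSA3 (YBL075C), an HSP70 induced by stress, at -2.05 and -1.92, and RTN2 (YDL204W), a reticulon, at -2.19 and -1.71. MSN2 (YMR037C) itself had a mean of -1.25, lost with the 15 min ratio subtracted (-0.74, adjusted p = 0.128) and without the N2 array (-1.0, adjusted p = 0.0826), and MSN4 (YKL062W) one of 0.04 (adjusted p = 0.903). Of 24 chaperone genes 11 fell, or 5 with the 15 min ratio subtracted, and 4 rose. SSB1 (YDL229W), the ribosome-bound HSP70, was at -3.04 and -3.03, SSA1 (YAL005C) at -2.10 and -2.16 and HSP78 (YDR258C) at -2.0 and -2.01. The 4 that rose were HSP42, AHA1 (mean 1.69), BTN2 (mean 1.14) and FES1 (mean 1.00), the last 3 also named afterwards.

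Among 25 stationary-phase and quiescence genes 7 rose and 4 fell, or 7 with the 15 min ratio subtracted. SPG1 (YGR236C), a stationary-phase gene of this list, was at 4.34 in CO and 2.71 in N2, and SPI1 and YGP1 rose as above. TFS1, an inhibitor of a vacuolar carboxypeptidase, belongs to the list of MSN2 and MSN4 targets and not to this list. It was named afterwards and had a mean of 1.60. RIM15 (YFL033C), the kinase of entry into quiescence, was at -1.70 and -1.62, its substrate IGO1 (YNL157W) at 1.04 and -0.11 (adjusted p = 0.367) and the regulator GIS1 (YDR096W) at -0.13 and -0.50 (adjusted p = 0.364). In autophagy 5 of 29 rose and 7 fell. ATG2 (YNL242W) and ATG7 (YHR171W), of membrane growth and of conjugation, had means of -1.80 and -1.76 beside ATG1. ATG17 (YLR423C), a scaffold that works with ATG1, was at 1.73. ATG8, the ubiquitin-like protein of the autophagosome, named afterwards, was at 0.63 and 1.93 (adjusted p = 0.0747), with a gas difference of -1.30 (adjusted p = 0.0382).

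Of 33 proteasome genes 8 fell, or 5 with the 15 min ratio subtracted, and 1 rose. RPT1 (YKL145W), RPN1 (YHR027C) and RPN7 (YPR108W), of the regulatory particle, had means of -1.82, -1.42 and -1.38, and RPN10 (YHR200W), a ubiquitin receptor, 1.84. RPN7 lost its call with the 15 min ratio subtracted (adjusted p = 0.0568). Of 12 vacuolar hydrolases 3 fell and 0 rose, among them the protease PRB1 (YEL060C, mean -1.94) and the mannosidase AMS1 (YGL156W, mean -1.02, a call lost with the 15 min ratio subtracted, adjusted p = 0.0608). CPS1 (YJL172W) at 1.72 and 0.71 and PEP4 (YPL154C) at 0.61 and 1.45 did not pass. The vacuolar ATPase had 3 of 12 genes fallen, with means of -1.60 for VMA5 (YKL080W), -1.53 for VMA1 (YDL185W) and -1.09 for VMA8 (YEL051W), and 1 risen, VMA11 (YPL234C, 2.31). The call of VMA8 was lost without either 24 h array (adjusted p = 0.0601 and 0.0707) and with the 15 min ratio subtracted (adjusted p = 0.0750).

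In the ER list 8 of 28 fell, or 5 with the 15 min ratio subtracted, and 2 rose. LHS1 (YKL073W), a chaperone of the ER lumen, and SEC63 (YOR254C), of the translocon, both had a mean of -2.44, SRP68 (YPL243W), of the signal recognition particle, -1.74, and OST5 (YGL226C-A), of the oligosaccharyltransferase, 1.79. SEC63 was at -1.58 with the 15 min ratio subtracted. Of 25 cell wall genes 8 rose and 8 fell, so that CWP1, SCW4, SPI1 and CCW12 at one end stood against HSP150 at the other. In the meiosis list 5 of 35 rose and 6 fell, or 3 with that subtraction. IME1 (YJR094C), the master inducer, was at -1.90 and -3.30, IME4 (YGL192W), an RNA methyltransferase, at 2.18 and 2.35, and SMK1 (YPR054W), a spore wall kinase, at 2.10 and 2.13. Of 19 phosphate genes 2 rose and 3 fell. SPL2 (YHR136C), which restrains low-affinity uptake, was at 4.07 and 2.47, and VTC1 (YER072W), of polyphosphate synthesis, at 2.92 and 2.02. PHO89 (YBR296C), a phosphate transporter, was at -0.76 and -2.37 (adjusted p = 0.0675). PHM6 (YDR281C) was at -1.84 and -0.84, a call that was lost without the CO array in the 12-array fit (-0.78, adjusted p = 0.227) and with robust moderation (adjusted p = 0.0516).

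Whether CO, which binds heme, differed from a plain lack of oxygen was asked of the difference between the 24 h arrays, which had a median of -0.07 and an SD of 0.741 over the ORFs. By fold alone, 54 ORFs (0.923%) had a CO value 2-fold or more above air and an N2 value within 0.5 of 0, and 184 (3.14%) were lower in CO in that way. In N2, 215 (3.67%) were higher and 111 (1.90%) lower with CO near 0, and 10 (0.171%) were 2-fold out in opposite directions. A single difference has no replicate, so it was tested against the spread of the CO minus N2 differences at the 5 earlier times, with the lone 24 h difference assumed to vary like those. On that test 86 ORFs were higher in CO (1.52% of 5672) and 365 lower (6.44%). Of those higher or lower in 1 gas by the fold rule and tested, 10 of 52, 83 of 167, 90 of 205 and 25 of 106 passed, in the order above, as did all 10 opposite ORFs. The fold rule and the test use the same 24 h values, and opposite ORFs have a large difference by definition. These counts therefore lend the fold classes no separate support.

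These calls depend on the scaling. With each array centred, 114 were higher and 225 lower in CO, so that the share higher went from 19.1% to 33.6%, and with quantile normalization of the 12 arrays 1 and 2 ORFs were left. Without the 15 min arrays the counts were 27 and 163, and without the 45 min arrays the count higher in CO was 52. On the 13 ORFs with 2 features the CO minus N2 difference itself differed between features by a median of 0.90 (0.08 to 1.66).

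**Figure D4:**
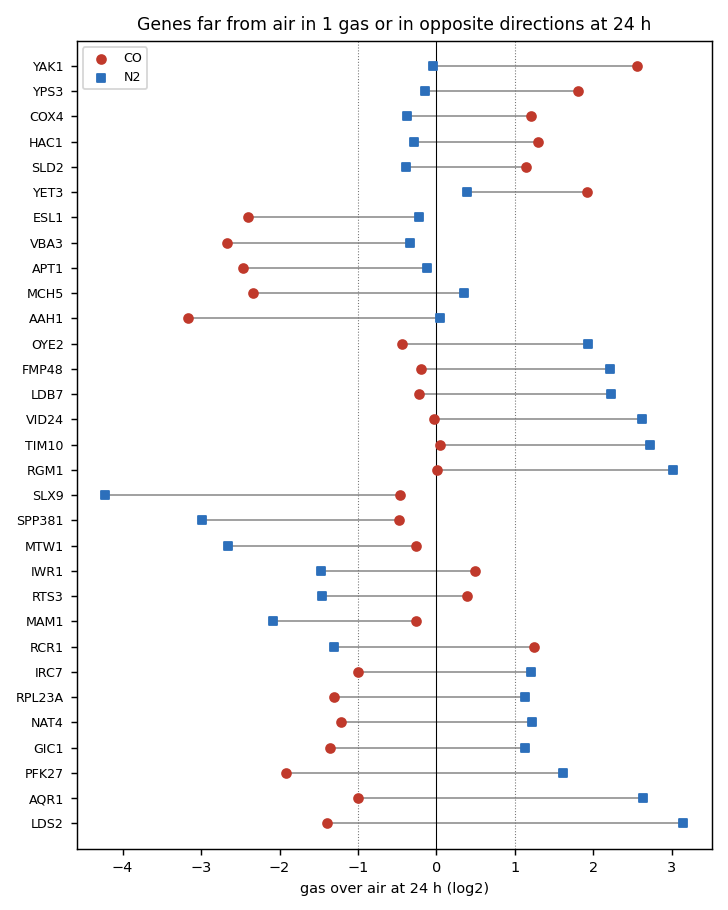
Log2 ratio of gas over air at 24 h for the genes named as far from air in 1 gas or in opposite directions, CO as red circles and N2 as blue squares, with dotted lines at 2-fold. YAK1 stands at 2.56 in CO and -0.04 in N2, AAH1 at -3.17 and 0.04, RGM1 at 0.01 and 3.02, SLX9 at -0.47 and -4.22, and LDS2 at -1.39 and 3.15.

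Of the genes higher in CO alone, YAK1 (YJL141C), a kinase that restrains growth when glucose is short, was farthest out, at 2.56 in CO and -0.04 in N2 (adjusted p = 0.00366). YPS3 (YLR121C), a wall protease, was at 1.80 and -0.15, HAC1 (YFL031W), the activator of the unfolded protein response, at 1.30 and -0.28, and YET3 (YDL072C), an ER protein, at 1.92 and 0.39. These passed the test of the difference (adjusted p = 0.0439, 0.0405 and 0.0211). COX4 (YGL187C), of cytochrome oxidase, at 1.20 and -0.38, and SLD2 (YKL108W), of replication initiation, at 1.14 and -0.39, did not (adjusted p = 0.126 and 0.0623). YPS3 and HAC1 lost their calls without the 15 min arrays (adjusted p = 0.0753 and 0.0659), and YPS3 also without the 45 min arrays (adjusted p = 0.0611).

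Lower in CO alone were AAH1 (YNL141W), adenine deaminase, at -3.17 in CO and 0.04 in N2 (adjusted p = 0.000771), and APT1 (YML022W), adenine phosphoribosyltransferase, at -2.46 and -0.12 (adjusted p = 0.00399), both of purine salvage. To this group belonged MCH5 (YOR306C), a riboflavin transporter, at -2.34 and 0.35, VBA3 (YCL069W), a vacuolar permease of basic amino acids, at -2.67 and -0.34, and ESL1 (YIL151C) at -2.40 and -0.22. All of these passed (adjusted p = 0.00933, 0.0120 and 0.0102 for the last 3).

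In N2 alone, RGM1 (YMR182C), a zinc finger protein, was at 3.02 against 0.01 in CO (adjusted p = 0.00629), TIM10 (YHR005C-A), a chaperone of mitochondrial import, at 2.72 against 0.05, and VID24 (YBR105C), the receptor that marks gluconeogenic enzymes for breakdown, at 2.62 against -0.03. LDB7 (YBL006C), of the RSC remodeller, was at 2.23 against -0.22, and FMP48 (YGR052W) at 2.21 against -0.20. All 5 passed (adjusted p = 0.0185, 0.00359, 0.00933 and 0.0245 for the last 4). OYE2 (YHR179W), at 1.93 against -0.44, lacked a value on some array and was not tested. Lower in N2 alone were SLX9 (YGR081C), of small-subunit export, at -4.22 against -0.47, SPP381 (YBR152W), a splicing factor, at -2.99 against -0.48, MTW1 (YAL034W-A), a kinetochore protein, at -2.66 against -0.26, and MAM1 (YER106W), of meiotic monopolin, at -2.08 against -0.26. IWR1 (YDL115C), which imports RNA polymerase II, stood at -1.47 against 0.49, and RTS3 (YGR161C) at -1.46 against 0.39. Each of the 6 passed (adjusted p = 0.00541, 0.00371, 0.0120, 0.0225, 0.0167 and 0.0147).

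Opposite directions were seen for 10 ORFs, of which 8 have symbols. LDS2 (YOL047C), a protein of the spore's lipid droplets and wall, was at -1.39 in CO and 3.15 in N2, the largest difference of these (-4.54, adjusted p = 0.000211). AQR1 (YNL065W), a membrane exporter, was at -1.0 and 2.63, PFK27 (YOL136C), which makes the glycolytic activator fructose 2,6-bisphosphate, at -1.92 and 1.61, and GIC1 (YHR061C), an effector of CDC42 in bud growth, at -1.36 and 1.13. IRC7 (YFR055W), a beta-lyase, was at -1.0 and 1.20, NAT4 (YMR069W), which acetylates histone H4, at -1.22 and 1.22, and RPL23A (YBL087C), one of a pair of near-identical genes, at -1.30 and 1.13. RCR1 (YBR005W), an ER membrane protein linked to chitin, went the other way, at 1.24 and -1.30 (adjusted p = 0.0144). NAT4 (adjusted p = 0.0391) lost its call with centring (adjusted p = 0.0552) and without the 45 min arrays (adjusted p = 0.0604), and RPL23A (adjusted p = 0.0285) without the 15 min arrays (adjusted p = 0.0509). When the mean of the earlier differences was subtracted, NAT4, RPL23A, MAM1, HAC1, FMP48 and YPS3 lost theirs (adjusted p = 0.0995, 0.0520, 0.0819, 0.125, 0.160 and 0.0554).

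The state at 24 h was then set against the first 2 hours in a fit of all 12 arrays. The value is the mean of the 24 h arrays minus the mean of the earlier periods. The error of this fit comes mostly from the earlier arrays, and the more widely spread 24 h arrays were assumed to vary like them. Its small adjusted p values rest on that assumption. Against the earlier times 1278 ORFs were higher (22.5% of 5672) and 1425 lower (25.1%). In both gases 1202 (21.2%) stood above all 5 earlier values and 1307 (23.0%) below, and 1094 (19.3%) and 1168 (20.6%) met both criteria. The count depended on the earlier times used and on the scaling, with 727 higher and 669 lower against 60 and 120 min alone and 386 and 341 after quantile normalization.

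CWP1 gained most, with a change of 4.68 (adjusted p = 6.97e-07); before 24 h it had lain between -0.26 and 1.15 in CO and between -0.14 and 1.55 in N2. PCK1 rose by 4.56, after lying between -0.11 and 0.48 in CO and between -0.99 and 0.26 in N2. CCW22 rose by 4.26, CHA1 by 4.09, DSE2 by 4.02, SCW4 by 3.97, HXT6 by 3.81 and HXT7 by 3.69. After quantile normalization of the 12 arrays these 8 changes were smaller, from 1.31 to 2.20, and still passed. HAP4 rose by 2.54 and FAR1, which missed the threshold against air, by 2.28 (adjusted p = 0.000101).

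The steepest falls were of PDC6 (-3.83, adjusted p = 1.56e-05), HSP150 (-3.77), SNO1 (-3.63) and PUN1 (YLR414C, -3.39), a membrane protein of nitrogen stress that was 2-fold or more higher in CO from 30 to 120 min. Next came ENO1 at -3.35, CTF13 at -3.08, PDC1 at -3.02 and PHO92 at -3.0. PDC6, HSP150 and ENO1 had all stood above 0 in both gases from 15 to 60 min, so that they reversed their sign. The fall of PDC1 was not called with the CO arrays alone (adjusted p = 0.0512), against 60 and 120 min alone (adjusted p = 0.0635) or without the N2 array of 24 h (adjusted p = 0.0539), and that of PHO92 was 1.97 (-1.97) without that array. SUT1 and ROX1, at changes of -0.17 and 0.10 (adjusted p = 0.660 and 0.756), did not pass this test. Neither did YHB1 (-0.02, adjusted p = 0.974), whose change averages unlike courses. In CO it stood at 0.72 at 15 min, 3.73 at 120 min and 1.42 at 24 h, while in N2 its 1.76 lay above all earlier values (0.54 to 1.00).

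**Figure D5:**
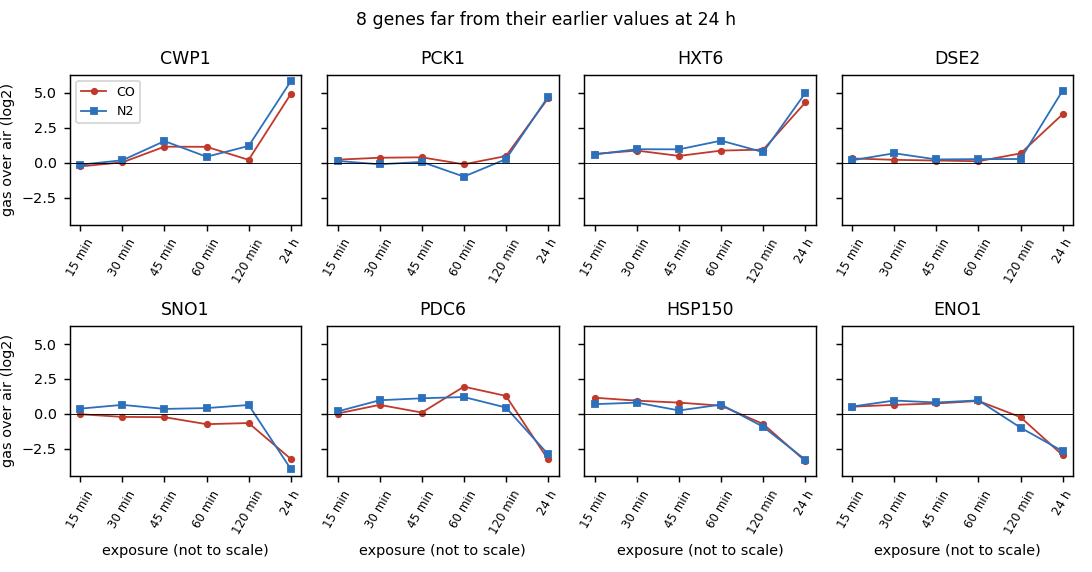
Log2 ratio of gas over air against exposure time (15 to 120 min and 24 h, spacing not to scale) for 8 genes far from their earlier values at 24 h, CO as red circles and N2 as blue squares, 1 array per point. PCK1 lies between -0.99 and 0.48 up to 120 min and at 4.60 and 4.71 at 24 h, and PDC6 goes from 1.29 and 0.46 at 120 min to -3.25 and -2.88.

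By the 2-fold cut, many of the ORFs far from air at 24 h were not yet so at 120 min. A fixed cut does not allow for the wider spread at 24 h. The SD across ORFs was 0.899 in CO and 0.853 in N2 at 120 min, against 1.2 and 1.27 at 24 h. Over all 5672 ORFs with every value, 337 were 2-fold higher and 509 2-fold lower in both gases at 120 min. Of 716 ORFs that were 2-fold higher in both gases at 24 h and had all values, 168 were already so in both gases at 120 min, 132 in 1 gas, and 416 in neither. Of 809 that were 2-fold lower, 311, 120 and 378 were so. Read forward, 168 of the 337 ORFs that were 2-fold higher in both gases at 120 min still were at 24 h, 21 had come within 0.5 of 0 in both, and 3 had turned 2-fold lower. Of 509 that were 2-fold lower at 120 min, 311 still were, 36 had come near 0 and 1 had turned higher.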

How the data were processed

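Values of 12 2-colour arrays were used as deposited: log2 ratios of the channels calculated by the authors, 1 per ORF and array to 2 decimals. The sources used here do not give the base, direction, background correction or normalization; gas over air was taken from the dyes per the labels. No signal or background is given, so the number of arrays limits the precision. ORFs were matched to the R64 annotation for symbols and neighbours alone (5651 of 6150 matched). Promoter and other sequences were not used here.

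With limma 3.58.1 in R 4.3.3 (lmFit, eBayes, Benjamini-Hochberg, threshold 0.05), the mean of both 24 h arrays was set against 0 over 5852 ORFs, 24 h against the mean of the periods 15 and 30, 45, and 60 and 120 min (terms for period and gas), and the CO minus N2 difference of 24 h against the spread of those of the other 5 times, the last 2 over the 5672 ORFs with a value on all 12 arrays. Where one 24 h array was left out, the other was assumed to vary like the earlier arrays. The gas term, then set by the earlier times alone, moved the remaining array to the midpoint between the gases. A mean from such a fit is therefore not the value of the array left, and a call lost there can reflect that shift. Nothing in the labels says that arrays come from separate cultures, so a p measures the spread between arrays, which may be technical. On simulated data in which 200 genes were changed by a log2 of 2, the 3 fits recovered 95.5%, 96.5% and 63.5% of them, with 4, 11 and 9 calls among 5472 unchanged genes. The simulated noise was normal, independent between arrays and of the same SD for a gene on every array. Simulated 24 h arrays thus varied like the earlier ones, so the false calls to be met where real 24 h arrays vary more were not tested.

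Genes named were up to 12 at each end of the 24 h mean (called, 2-fold in both gases, with a symbol), up to 6 for each direction in 1 gas, all opposite ones with a symbol, up to 8 in each direction against the earlier times, up to 4 per list by size of the mean, fixed regulators and hypoxic genes, and the genes missing from the strain; others are marked as named after their values were seen. IGO2, one of the fixed genes, is not analysed here. Members, lists and tests were chosen with earlier results of these data known. The alternatives were centring, quantile normalization, other samples or ORFs in the fit, subtraction of the 15 min ratio (for a constant dye or probe effect), other folds and leaving out arrays. For 2 of the genes that the rule names, results are not reported here.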

Additional observations from a re-analysis of the deposited data

Results flagged for a closer look

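The results here are named genes whose difference between CO and N2 at 24 h passed limma's test (adjusted p under 0.05, Benjamini-Hochberg). Each value is CO minus N2 on the log2 scale, from 1 array per gas, and the test assumes that the 24 h difference varies like those of the 5 earlier times. Among the genes far from air in a single gas or opposite in both, 27 lost this call under quantile normalization of the 12 arrays and SLX9 kept it.

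Among genes near air in N2 and far below it in CO, the difference was -3.21 for AAH1 and -2.34 for APT1, both of purine salvage, -2.69 for MCH5, -2.33 for VBA3 and -2.18 for ESL1. In the converse case, near air in CO and higher in N2, it was -3.01 for RGM1, -2.67 for TIM10, -2.65 for VID24, -2.45 for LDB7 and -2.41 for FMP48. Of the opposite genes, LDS2 had -4.54, AQR1 -3.63, PFK27 -3.53, GIC1 -2.49, NAT4 -2.44, RPL23A -2.43 and IRC7 -2.20, whereas RCR1 had 2.54.

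Higher in CO alone were YAK1 at 2.60, YPS3 at 1.95, HAC1 at 1.58 and YET3 at 1.53. Genes lower in N2 alone gave 3.75 for SLX9, 2.51 for SPP381, 2.40 for MTW1, 1.96 for IWR1, 1.85 for RTS3 and 1.82 for MAM1.

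Over all 5672 ORFs tested, 6.44% were called lower in CO and 1.52% higher. Of the 11 measured genes of daughter separation 3 were called lower in CO, with -1.83 for PRY3, -1.69 for DSE2 and -1.35 for DSE3. Of the 11 of START 2 were, with -1.56 for PCL9 and -1.36 for CLN3. Neither list had a member called higher. Such calls were not confined to these lists, with 4 of 25 mating genes, 5 of 48 replication genes and 6 of 66 mitochondrial ribosomal protein genes also lower in CO. Also lower in CO were the wall genes CCW12 at -1.58 and YGP1 at -2.11, the iron gene FET3 at -1.33, the transporter HXT4 at -1.26, the elongase ELO3 at -1.43, the clamp loader RFC4 at -1.37, ATG8 at -1.30 and YRO2 at -1.81. Higher in CO than in N2 were PHO92 at 1.75, PUN1 at 1.70, ATP1 at 1.59, GUT1 at 1.29, UPC2 at 1.26 and LEU1 at 1.14.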

How the results depend on the processing

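At 24 h there is 1 array per gas, so no value has a replicate within its gas, and a mean against air has 1 residual degree of freedom before moderation. Against air, a fit of all 12 arrays called 1609 ORFs higher and 1990 lower. In that fit, leaving out the CO or the N2 array of 24 h gave 1190 to 1456 higher and 1535 to 1601 lower. Centring, quantile normalization, robust moderation, ORFs with all values and subtraction of the 15 min ratio stayed within 1.5 times of the counts reported. Against the earlier times, array weights gave 821 and 854, the CO arrays alone 510 and 572, the N2 arrays alone 741 lower, 60 and 120 min as the earlier times 727 and 669, and quantile normalization 386 and 341. Leaving out each array in turn gave 886 to 1330 higher and 1031 to 1489 lower.

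For CO minus N2, quantile normalization of the 12 arrays left 1 ORF higher in CO and 2 lower. Subtracting the mean of the earlier differences left 41 and 199, centring 225 lower, and leaving out each earlier time in turn 27 to 99 higher and 163 to 386 lower. Under that quantile normalization 27 of the calls of named genes farthest out in 1 gas or opposite were lost, and only SLX9 among them kept its call.

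The fold rule moved with its limits. At 3-fold, 337 ORFs were alike higher, 309 alike lower, 5 and 42 higher and lower in CO alone, 57 and 16 in N2 alone, and 3 opposite. At 1.5-fold the same counts were 1140, 1471, 207, 429, 444, 327 and 104. With the other gas within 0.25 of 0, they were 20 and 97 in CO alone and 113 and 47 in N2 alone. ORFs higher in CO alone numbered 101 with centring, 103 with quantile normalization and 82 with the 15 min ratio subtracted, which also gave 17 opposite, and centring gave 168 lower in N2 alone.

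Means near 0 that were not called against air changed sign. With the 15 min ratio subtracted CLN3 was at -0.40, GCN4 at -0.89, URA3 at -0.38, MOT3 at 0.20 and COX5A at -0.16, and with quantile normalization CLN3 was at -0.02. Without the N2 array of 24 h CLN3 was at -0.73 (adjusted p = 0.0233) and without the CO array at 0.75 (adjusted p = 0.0194), both called. Without the N2 array MSN4 was at -0.08 and MOT3 at 0.12, and without the CO array GCN4 was at -0.13, URA3 at -0.18 and IGO1 at -0.06. List medians near 0 also changed sign, among them those of hexose transporters (-0.01 without the N2 array) and of seripauperins (-0.11 with the 15 min ratio subtracted). The causes were not tested.

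Counts of list members called, of 5 or more in either fit, moved by over 1.5 times in 9 of 35 cases with the 15 min ratio subtracted and in 32 of 58 in the fit of all 12 arrays, where all 32 were larger.

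The labels number no replicates, so that pairing was by exposure time alone. The CO minus N2 test pairs the arrays of each time. With exposure time as a random block 1260 ORFs were higher and 1402 lower than at the earlier times.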

Other observations

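A set of 201 ORFs had a 24 h value in N2 and none in CO. Of these, 51 were at least 2-fold higher and 18 at least 2-fold lower in N2 than in air, and none entered a comparison. The table carried 17 ORFs with a value in CO alone.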
